A study of Mus musculus with 12 samples.

Results

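A set of 8 genes that hold lymphocytes at rest was followed in mouse B cells: Klf2, Klf3, Foxo1, Foxo3, Foxp1, Btg1, Tob1 and Pik3ip1. They were chosen by symbol, with earlier results of these data known. All 8 were found among the 37991 gene identifiers of the count table and among the 13538 genes with enough reads to test. RNA had been sequenced from splenic resting B cells of 8-week-old mice, taken by depletion of other cells and of CD43-positive cells. Cre-only mice carried the CD23-iCre transgene alone, and Runx1 c-k/o mice carried it with Runx1 fl/fl alleles, whose exon 4 is flanked by loxP sites, so the transgene was present in all groups and first acts at the transitional stage of B cell development. Cells were sequenced at rest (0 h) or after 3 h with anti-IgM, which crosslinks the B cell receptor (BCR), and IL-4. Each of the 4 groups held 3 samples, 12 in all. The values allow 2 questions to be asked of the genes: how their RNA changed on activation, and whether it differed between the genotypes.

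A naive B cell stays in G0 through an active program rather than by default. KLF2, a zinc-finger factor of the Krüppel-like family, holds lymphocytes out of division and controls where they home, and KLF3 is a repressor of the same family. FOXO1 and FOXO3 are forkhead factors that stay in the nucleus while phosphoinositide 3-kinase (PI3K) is quiet and are exported when AKT phosphorylates them, and FOXP1 is a related forkhead factor of mature B cells. BTG1 and TOB1 belong to the antiproliferative BTG/TOB family and link mRNA to the CCR4-NOT deadenylase. PIK3IP1 is a transmembrane protein that inhibits PI3K, the kinase that turns the FOXO factors off.

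The 12 libraries held 14442251 to 23641552 counted reads, and levels are read counts scaled to a common library size, given as CPM, a gene's counts relative to its library's total after TMM normalization. The smallest level that 3 counts can show lay between 0.127 and 0.208 CPM, far under every value of the 8 genes, and covers counting error only. Runx1 itself was read at 81.8 to 86.7 CPM in resting Cre-only and 95.7 to 103 CPM in resting Runx1 c-k/o cells, and since a count over all exons does not separate the floxed exon, this level checks no label. Among the Runx1 c-k/o samples 3 libraries stood apart. The 20 genes that rose most on activation in Cre-only cells summed to 516 and 519 CPM in resting Runx1 c-k/o replicates 1 and 3, and to 1450 CPM in replicate 2. The 20 that fell most summed to 185 and 149 CPM in 3-h Runx1 c-k/o replicates 1 and 3, and to 742 CPM in replicate 2. Klf2 is among the 20 that fell most and Egr2, named below, among the 20 that rose most. For these genes, leaving out the replicate-2 libraries is therefore not independent of their own values. The 3-h Runx1 c-k/o replicate 1 had the lowest normalization factor of the 12 samples, 0.886, where the highest was 1.07, and differed most from its group, with a chi-square per degree of freedom of 54.7 and 76.3 against the other two, where Cre-only replicates gave 2.86 to 5.79. Whether the replicate-2 levels belong to the cells or to mixing between libraries was not tested, and this limits every value of those libraries. Several results that rest on these libraries are given with and without them. B cell markers summed to 11900 to 30100 CPM in the 12 samples, while 8 T cell markers summed to 2.03 to 8.52 CPM. Myeloid markers summed to 213 to 417 CPM at rest and to 17.6 to 46.5 CPM at 3 h. Marginal zone B cell markers at rest summed to 1190 to 1520 CPM in Cre-only and 1670 to 1830 CPM in Runx1 c-k/o cells. At 3 h these sums were 2620 to 2880 and 2760 to 3520 CPM. Within the sums at rest, Cr2 was at 818 to 1070 CPM in Cre-only and 1220 to 1410 CPM in Runx1 c-k/o cells. Cd9 was at 20.4 to 22.1 and 23.1 to 41.1 CPM. The other markers overlapped between the genotypes at rest. Dtx1 was at 190 to 230 and 170 to 223 CPM, and Myof at 76.4 to 98.0 and 67.5 to 99.1 CPM. Cd1d1 was at 64.1 to 73.9 and 69.2 to 76.7 CPM, and S1pr3 at 19.0 to 25.6 and 23.3 to 44.2 CPM. Cd1d1, also in the sums, fell from 64.1 to 76.7 CPM at rest to 1.94 to 5.57 CPM at 3 h. The part of these cell types in the changes on activation and in the genotype differences was not tested. In bulk RNA, fewer cells of a type and less RNA per cell cannot be told apart.

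The 8 genes lie on 6 chromosomes of the mm9 build that the authors used. Klf2 (ENSMUSG00000055148) is at chr8:74842932-74845555 and Klf3 (ENSMUSG00000029178) at chr5:65194628-65221368, both on the plus strand and free of overlapping genes. Foxo1 (ENSMUSG00000044167, chr3:52072259-52154031, plus strand) shares exon bases with the antisense transcript RP24-337A16.1, which had 0 counts in every sample. Foxo3 (ENSMUSG00000048756) is at chr10:41901647-41996561 on the minus strand. Foxp1 (ENSMUSG00000030067, chr6:98875332-99216526, minus strand) overlaps Eif4e3 on the same strand, which had 3 to 173 counts where Foxp1 had 7815 to 16174. Btg1 (ENSMUSG00000036478, chr10:96079635-96085447) and Tob1 (ENSMUSG00000037573, chr11:94072768-94076809) are compact plus-strand genes without overlaps. Pik3ip1 (ENSMUSG00000034614, chr11:3230404-3242974, plus strand) shares exon bases with the antisense Gm12592, which had 8 to 38 counts where Pik3ip1 had 667 to 2176.

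Promoter sequences are shown for 3 genes that fell on activation, Klf2, Btg1 and Tob1, and for Pik3ip1, which did not. Each runs from 250 bases before to 50 bases after the RefSeq start site in the GRCm38.p6 build, and capitals mark a match to the KLF box CCACCC on either strand or, in Btg1, to the forkhead motif TGTTTAC.
Klf2, chr8:72318812-72319111, plus strand: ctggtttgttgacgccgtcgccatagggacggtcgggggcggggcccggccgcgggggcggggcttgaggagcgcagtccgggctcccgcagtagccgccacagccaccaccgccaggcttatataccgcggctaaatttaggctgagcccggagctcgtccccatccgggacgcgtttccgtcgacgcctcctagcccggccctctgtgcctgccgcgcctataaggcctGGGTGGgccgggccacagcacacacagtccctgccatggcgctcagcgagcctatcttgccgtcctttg
Btg1, chr10:96616751-96617050, plus strand: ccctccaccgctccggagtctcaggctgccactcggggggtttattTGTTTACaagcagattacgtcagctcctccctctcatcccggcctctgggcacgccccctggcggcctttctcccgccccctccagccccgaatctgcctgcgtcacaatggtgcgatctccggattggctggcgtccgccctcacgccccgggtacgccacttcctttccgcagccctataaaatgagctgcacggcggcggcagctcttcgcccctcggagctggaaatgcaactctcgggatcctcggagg
Tob1, chr11:94211204-94211503, plus strand: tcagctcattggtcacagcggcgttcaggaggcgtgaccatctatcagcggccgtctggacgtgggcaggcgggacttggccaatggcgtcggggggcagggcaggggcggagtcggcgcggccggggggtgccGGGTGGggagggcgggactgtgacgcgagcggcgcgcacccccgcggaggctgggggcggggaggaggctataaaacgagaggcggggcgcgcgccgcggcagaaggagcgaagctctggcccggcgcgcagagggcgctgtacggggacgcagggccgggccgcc
Pik3ip1, chr11:3330481-3330780, plus strand: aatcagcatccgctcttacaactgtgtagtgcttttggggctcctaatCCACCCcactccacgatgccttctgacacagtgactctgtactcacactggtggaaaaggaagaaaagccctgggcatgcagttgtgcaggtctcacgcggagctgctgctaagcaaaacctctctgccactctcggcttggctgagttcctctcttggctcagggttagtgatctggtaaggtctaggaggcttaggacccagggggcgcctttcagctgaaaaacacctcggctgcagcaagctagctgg
All 8 genes had a RefSeq promoter, 10 windows in all because Foxp1 has 3. Both strands were searched. The forkhead motif was in the Btg1 window alone and in 3.65% of the 32851 mouse promoters of this length, and the KLF box was in the windows of Klf2, Klf3, Foxp1, Tob1 and Pik3ip1 and in 31.5% of all promoters. The RUNX motif TGTGGT, in 16.8% of all promoters, and the AP-1 motif TGACTCA, in 5.2%, were in none of the 10 windows. The Pik3ip1 window was 54.7% G and C and the other 3 printed windows 64.7% to 75.3%, where the median promoter was 52.7%. A match of letters is a description and not a binding site.

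Per kilobase of exon, Klf2 and Btg1 stood far above the other 6 genes at rest. In resting Cre-only cells Klf2 was at 517 ± 55.0 CPM per kb and Btg1 at 479 ± 21.8 CPM per kb (mean ± SD, n = 3), and their samples overlapped. Foxo1 followed at 68.8 ± 4.50, Foxp1 at 53.3 ± 1.62 and Klf3 at 23.6 ± 0.491 CPM per kb. Foxo3, Tob1 and Pik3ip1 lay at 13.5, 13.0 and 13.0 CPM per kb with overlapping samples. At 3 h the order had changed: Btg1 was highest at 168 ± 10.6 CPM per kb, Foxp1 second at 56.8 ± 2.31, and Klf2, highest at rest, stood at 9.86 ± 1.15, below Klf3 at 13.3 ± 0.575.

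**Figure D1:**
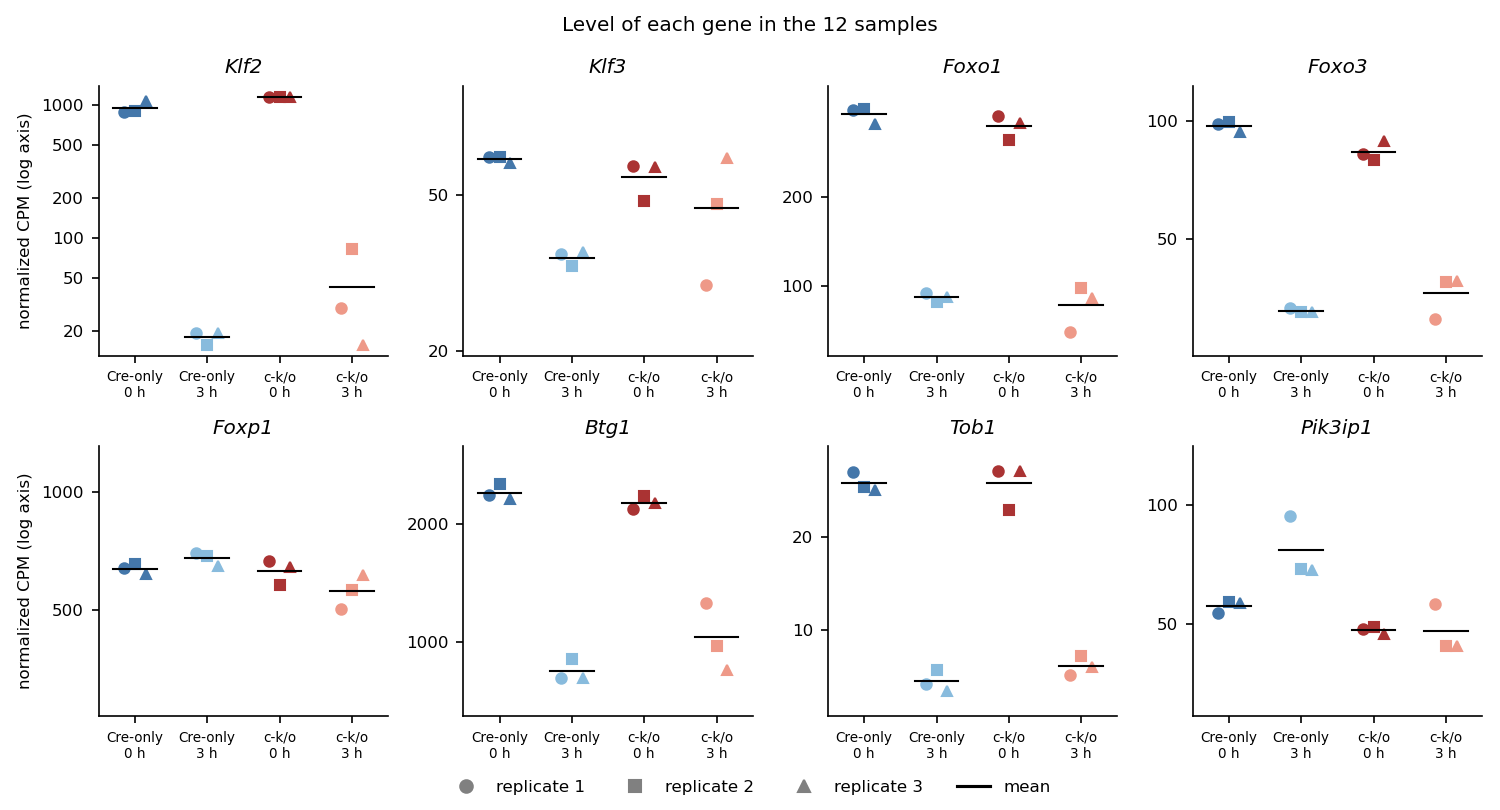
Normalized CPM (log axis) of each gene in each of the 12 samples, by group, with a marker for each replicate and a line at the mean. Klf2 lies at 889 to 1160 CPM in the 6 resting samples and at 82.5 CPM or less in all 6 activated samples, while Foxp1 stays between 503 and 698 CPM in all 12.

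RNA of most of the set was lower after 3 h of activation. No sample was cultured for 3 h without anti-IgM and IL-4, so effects of the stimulus and of culture cannot be told apart. Change on activation here means 3 h against 0 h. Changes are log2 fold changes with their standard error (SE) from a fit of all 12 samples with edgeR, and a gene is called where its p-value, adjusted over all 13538 genes for the number of tests, is under 0.05. In Cre-only cells 7 of the 8 genes passed, 6 of them lower and Pik3ip1 higher, where 75% of all tested genes passed, 36.4% lower and 38.6% higher. The median log2 fold change of the 8 genes was -1.53, against 0.03 over all tested genes. In Runx1 c-k/o cells 5 of the 8 passed, all lower (74.3% of all genes passed, 36.6% lower), and the median was -1.16 against 0.00. Klf2, Foxo1, Foxo3, Btg1 and Tob1 fell by over 1 log2 unit in both genotypes, a size of fall seen in 25.1% of all genes for Cre-only cells and 25.2% for Runx1 c-k/o cells. Counted by samples that do not overlap, 6 of the 8 lay lower and 1 higher at 3 h in Cre-only cells (40.6% and 43.8% of all genes), and 5 lay lower in Runx1 c-k/o cells (36.3%). Since most genes changed, passing the threshold says little here and the sizes carry more. Without the 2 replicate-2 Runx1 c-k/o libraries that stood apart, and without all 3, the counts were again 7 and 5.

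Klf2 gave the largest fall of the set. It was at 889, 904 and 1070 CPM in resting Cre-only cells and at 19.4, 15.7 and 19.5 CPM at 3 h. In Runx1 c-k/o cells it was at 1160, 1160 and 1150 CPM at rest and at 29.6, 82.5 and 15.7 CPM at 3 h, so in both genotypes every activated sample lay far under every resting sample. The log2 fold change was -5.71 (SE 0.498, edgeR adjusted p = 5.73e-07) in Cre-only cells, with 1.91% of the resting level left, and Klf2 ranked 70 of the 13538 tested genes from the lowest log2 fold change. In Runx1 c-k/o cells it was -4.77 (SE 0.473, edgeR adjusted p = 1.90e-06), and -5.67 without 3-h replicate 2, the sample at 82.5 CPM. That library also held more of the other genes that fall on activation and 46.5 CPM of myeloid markers, against 21.0 and 19.2 CPM in the other 3-h Runx1 c-k/o samples. The 20 genes that fell most, Klf2 among them, also held the immediate early genes Fosb, Fos and Jun (named after their values were seen). In Cre-only cells Fosb was at 1950 to 2110 CPM at rest and 2.55 to 3.2 CPM at 3 h. Fos was at 802 to 932 and 2.93 to 3.59 CPM, and Jun at 424 to 568 and 9.67 to 12.3 CPM. What set these levels at rest, and that of Klf2, was not tested.

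Klf3 fell less. It was at 62.5, 62.3 and 60.2 CPM in resting and at 35.3, 32.9 and 35.7 CPM in activated Cre-only cells, a log2 fold change of -0.83 (SE 0.198, edgeR adjusted p = 0.00212), and these groups did not overlap. Its Runx1 c-k/o levels were 59.2, 48.3 and 58.9 CPM at rest and 29.5, 47.4 and 61.9 CPM at 3 h, which overlap, and its log2 fold change of -0.26 (SE 0.196) did not pass (adjusted p = 0.247). The 3-h Runx1 c-k/o samples of Klf3 thus spread from below the Cre-only level to the resting level. Its fall in Cre-only cells was no longer called with 1 RUVs factor, an estimate of unwanted variation from replicate differences that moves with activation here (log2 fold change -0.03 with edgeR and -0.14 with DESeq2). In Runx1 c-k/o cells Klf3 was called lower without 3-h replicate 3 (-0.52, edgeR adjusted p = 0.016) stood at -0.04 without 3-h replicate 1, and was called higher with 1 RUVs factor (0.53, edgeR adjusted p = 0.0133, and 0.46, DESeq2 adjusted p = 0.0217).

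Foxo1, whose protein drives the resting program of naive B cells, fell in both genotypes. Its level went from 396, 397 and 353 CPM to 94.9, 88.5 and 92.3 CPM in Cre-only cells, and from 376, 313 and 357 CPM to 69.9, 98.4 and 91.1 CPM in Runx1 c-k/o cells. The groups lay far apart, with log2 fold changes of -2.06 (SE 0.126, edgeR adjusted p = 4.16e-08) and -2.01 (SE 0.126, edgeR adjusted p = 6.55e-08). Foxo3 went from 98.0, 99.1 and 93.8 CPM to 33.4, 32.7 and 32.6 CPM in Cre-only cells, a log2 fold change of -1.56 (SE 0.0944, edgeR adjusted p = 3.79e-08). Foxo3 levels in Runx1 c-k/o cells went from 82.2, 79.3 and 88.7 CPM to 31.3, 39.0 and 39.1 CPM, a log2 fold change of -1.19 (SE 0.0939, edgeR adjusted p = 2.91e-07). Both FOXO genes were called lower in both genotypes under each of 24 alternatives.

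Foxp1 was the member that did not pass in either genotype. It was at 638, 654 and 616 CPM in resting and 698, 688 and 646 CPM in activated Cre-only cells, with a log2 fold change of 0.09 and a 95% interval of -0.13 to 0.31. In Runx1 c-k/o cells it was at 665, 578 and 645 CPM and then 503, 563 and 615 CPM, with a log2 fold change of -0.17 and an interval of -0.38 to 0.05. The direction in Cre-only cells depends on the scaling: with total counts alone, which shifted the median of all genes from 0.03 to -0.10, it was -0.03. Foxp1 was called higher in Cre-only cells with 1 RUVs factor (0.33 with edgeR and 0.23 with DESeq2), and lower in Runx1 c-k/o cells with total counts (-0.28), with at least 10 counts in every sample (-0.27) and with DESeq2 (-0.21).

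Btg1 and Tob1 both fell, from very different levels. Btg1 went from 2370, 2520 and 2310 CPM to 814, 906 and 813 CPM in Cre-only cells, and from 2180, 2350 and 2260 CPM to 1260, 979 and 853 CPM in Runx1 c-k/o cells. Every activated sample lay under every resting sample, with log2 fold changes of -1.51 (SE 0.135, edgeR adjusted p = 7.18e-07) and -1.14 (SE 0.134, edgeR adjusted p = 8.12e-06). Tob1 went from 32.2, 28.9 and 28.3 CPM to 6.73, 7.45 and 6.37 CPM in Cre-only cells, a log2 fold change of -2.12 (SE 0.132, edgeR adjusted p = 4.31e-08). Tob1 levels in Runx1 c-k/o cells went from 32.4, 24.3 and 32.5 CPM to 7.21, 8.27 and 7.60 CPM, a log2 fold change of -1.95 (SE 0.131, edgeR adjusted p = 1.00e-07). After its fall, Btg1 was still the highest of the 8 genes at 3 h per kilobase in both genotypes.

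Pik3ip1, the PI3K inhibitor, was the 1 gene of the set called higher in the edgeR fit of all 12 samples, and only in Cre-only cells. It was at 53.1, 56.8 and 56.3 CPM in resting and at 93.9, 68.9 and 68.5 CPM in activated Cre-only cells, and all 3 activated samples lay above the resting ones. The log2 fold change was 0.48 (SE 0.13, edgeR adjusted p = 0.00516), 0.32 (edgeR adjusted p = 0.0269) without 3-h replicate 1, and not called with 1 RUVs factor (0.21 with edgeR and 0.10 with DESeq2). For Runx1 c-k/o cells, Pik3ip1 was at 48.4, 48.9 and 47.1 CPM at rest and at 56.1, 43.8 and 43.9 CPM at 3 h, with a log2 fold change of -0.01 and an interval of -0.29 to 0.28.

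**Figure D2:**
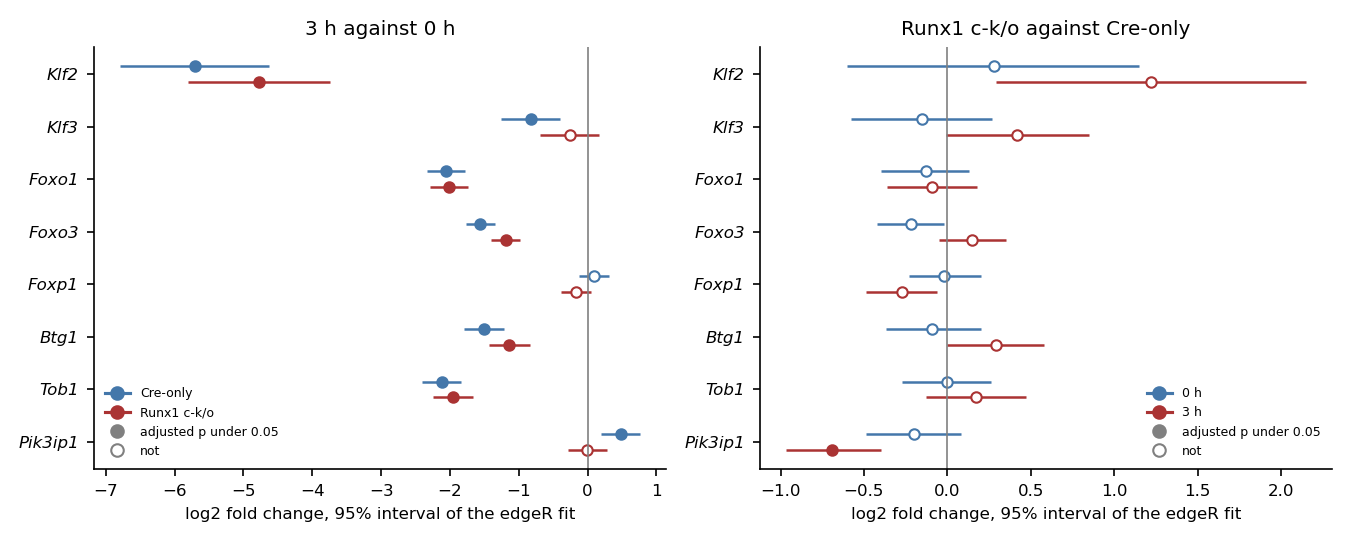
Log2 fold change of each gene with its 95% interval from the edgeR fit: 3 h against 0 h in each genotype (left) and Runx1 c-k/o against Cre-only at each time (right), with filled points for an adjusted p under 0.05. On activation Klf2 lies at -5.71 and -4.77, and between genotypes the filled point is that of Pik3ip1 at 3 h, at -0.69.

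The relatives of these genes moved in both directions. Over all tested genes, 36.4% were called lower and 38.6% higher in Cre-only cells, and 36.6% lower in Runx1 c-k/o cells. Of the 10 other KLF genes tested, 7 fell and 2 rose in Cre-only cells and likewise in Runx1 c-k/o cells. Klf6 fell from 1270 ± 112 to 88.3 ± 5.50 CPM, Klf11 from 79.5 ± 5.37 to 6.11 ± 0.102 CPM and Klf13 from 272 ± 18.2 to 64.8 ± 1.02 CPM in Cre-only cells. Klf4 (named after its values were seen) fell from 205 ± 11 to 1.15 ± 0.249 CPM per kb, so that the 3 KLF genes highest per kilobase at rest, Klf2, Klf6 and Klf4, all fell. Of 11 other forkhead genes, 4 rose and 3 fell in Cre-only cells (2 to 7 and 3 to 4 under the alternatives, with medians from -0.07 to 0.70). Foxo4, the third FOXO gene expressed here, fell from 52.0 ± 1.07 to 16.5 ± 1.75 CPM (log2 fold change -1.65, edgeR adjusted p = 3.88e-08), while Foxk2 and Foxn2 rose by 1.5 and 1.48 on the log2 scale. In the BTG/TOB and deadenylase list of 18 tested genes, 10 rose and 4 fell, a balance that depends on the setting (6 to 10 and 4 to 8 under the alternatives). Btg2 fell from 489 ± 44.0 to 63.2 ± 7.27 CPM, and the CCR4-NOT subunit genes Cnot8 and Rqcd1 (Cnot9) rose, from 60.2 ± 1.65 to 184 ± 23.2 CPM and from 38.6 ± 1.93 to 79.0 ± 0.379 CPM.

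**Figure D3:**
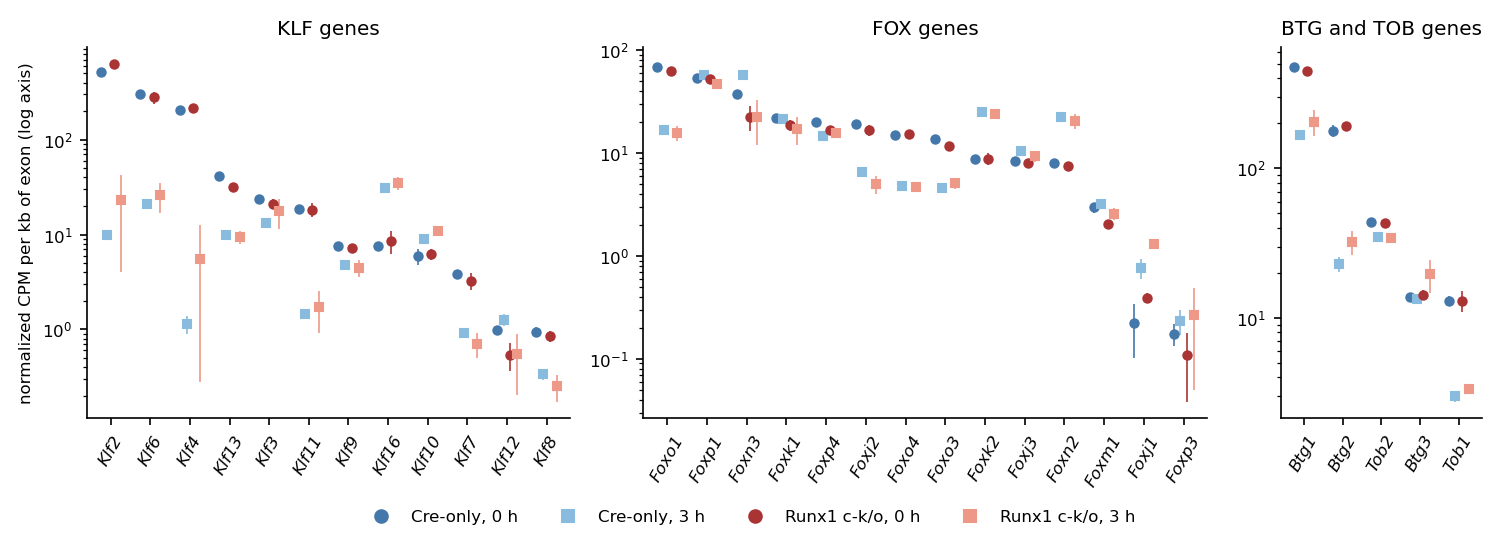
Normalized CPM per kb of exon (log axis, mean with SD bars, 3 samples each; lower bars that would reach 0 are cut) for the KLF, FOX and BTG/TOB genes tested, in the 4 groups. Klf2 and Btg1 head their families at rest, Klf2 falls from 517 to 9.86 CPM per kb in Cre-only cells, and Foxk2 and Foxn2 rise.

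Genes around the set gave the following counts on activation, where 36.4% of all tested genes were called lower and 38.6% higher in Cre-only cells. Median log2 fold changes in Cre-only cells were -0.6 for the PI3K-AKT genes and -0.24 for cell cycle restraint. They were -1.14 for the further quiescence genes and 0.91 for the activation genes, against 0.03 over all tested genes. Of 29 tested genes that FOXO factors or KLF2 are known to act on, 21 fell and 6 rose in Cre-only cells (median log2 fold change -1.85), and 20 fell and 7 rose in Runx1 c-k/o cells (median -1.95). Among them, S1pr1, the egress receptor, fell from 465 ± 23.4 to 107 ± 6.41 CPM in Cre-only cells, Pmaip1, which encodes the BH3 protein NOXA, from 178 ± 18.3 to 25.9 ± 2.50 CPM, and Gadd45a, a stress response gene, from 38.7 ± 1.09 to 7.44 ± 0.804 CPM. Cdkn1b, the gene of the CDK inhibitor p27, fell from 218 ± 23.3 to 34.2 ± 8.19 CPM and Txnip from 1230 ± 149 to 105 ± 33.7 CPM in Runx1 c-k/o cells. Of 29 PI3K-AKT genes, 16 fell and 6 rose in Cre-only cells, with Sgk1 and Sgk3, kinases related to AKT, at log2 fold changes of -2.51 and -1.8 and Phlpp1, an AKT phosphatase gene, at 2.84. Of 19 tested genes of cell cycle restraint, 9 fell and 5 rose, and the MAX partner gene Mxd4 fell from 128 ± 8.40 to 10.1 ± 1.59 CPM. Rbl2, the gene of the pocket protein p130, fell from 85.4 ± 1.17 to 23.1 ± 3.67 CPM. Of 20 further genes of lymphocyte quiescence, 14 fell and 4 rose, Smad7 falling from 154 ± 13.3 to 16.2 ± 0.899 CPM, and Satb1 and Smad3 rising by 2.58 and 3.18 on the log2 scale. In the list of 20 activation genes, 12 rose and 7 fell. Egr2 rose from 44.6 ± 2.12 to 624 ± 2.11 CPM, and Junb, an immediate early gene, was already at 1080 ± 109 CPM at rest and fell to 163 ± 22.6 CPM.

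**Figure D4:**
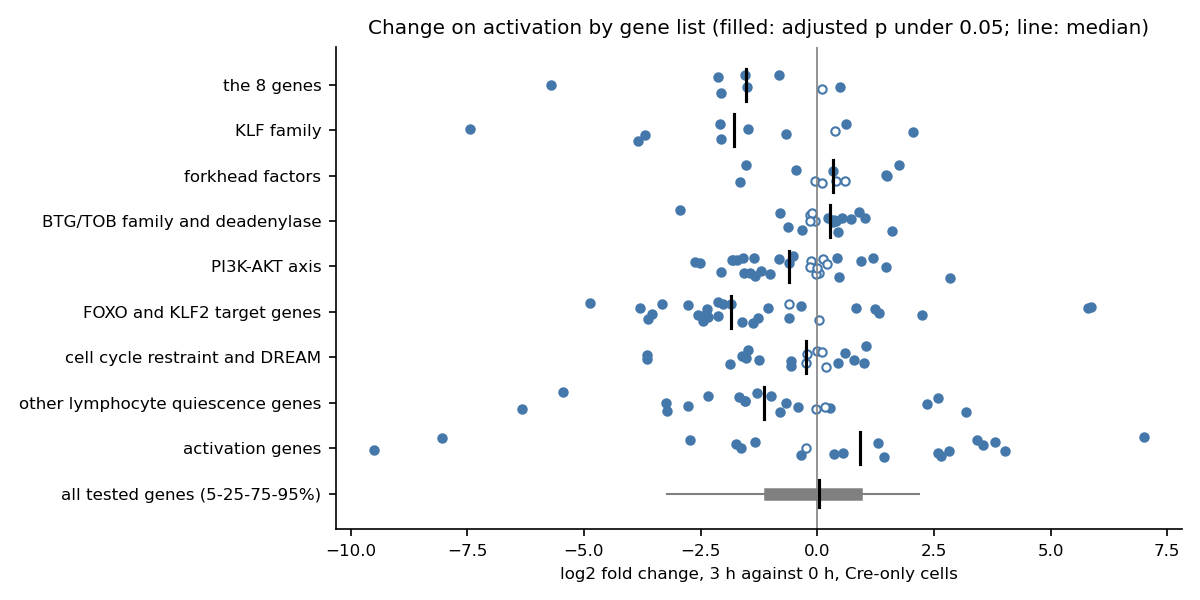
Log2 fold change at 3 h against 0 h in Cre-only cells for each tested gene of the 8-gene set and of 8 other lists, with filled points for an adjusted p under 0.05 and a line at each list's median. The grey bar spans the middle of all 13538 tested genes, whose median is 0.03, and the 8 genes have a median of -1.53.

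Between genotypes at rest, 0 of the 8 genes passed (edgeR), where 1.49% of all tested genes did. At an unadjusted p under 0.05 it was 1 of the 8, Foxo3, where 11.1% of all genes were, and DESeq2 called 0. Klf2 was higher in every resting Runx1 c-k/o sample than in every Cre-only sample, with a log2 fold change of 0.28, an interval of -0.60 to 1.15 and an adjusted p of 0.803. That interval uses 1 spread shared by the 4 groups, among them the 3-h Runx1 c-k/o samples of Klf2 at 15.7 to 82.5 CPM. With the 2 resting groups fitted alone, Klf2 was at 0.26 (edgeR adjusted p = 0.29). Klf3, Foxo3 and Pik3ip1 were lower in every Runx1 c-k/o sample, with log2 fold changes of -0.15 (interval -0.58 to 0.27, adjusted p = 0.782), -0.22 (interval -0.42 to -0.02, adjusted p = 0.396) and -0.20 (interval -0.49 to 0.08, adjusted p = 0.621). Such a separation was seen in 12% of all genes upward and 11.6% downward. The intervals of Foxo1 (-0.40 to 0.13), Foxp1 (-0.23 to 0.20), Btg1 (-0.37 to 0.20) and Tob1 (-0.27 to 0.26) leave room for small differences in either direction. Over the neighbouring lists, Pik3r6, a regulatory subunit gene of PI3K gamma, was higher in resting Runx1 c-k/o cells, at 1.78 ± 0.264 against 0.406 ± 0.0250 CPM (log2 fold change 2.12, edgeR adjusted p = 0.00753), and was not called without Cre-only replicate 1 or 2 (2.08 and 2.11, edgeR adjusted p = 0.0539 and 0.0526). Egr2, an early growth response gene, was also higher, at 109 ± 53.5 against 44.6 ± 2.12 CPM (1.29, edgeR adjusted p = 0.0222), called under 19 of 23 alternatives and at 0.81 (edgeR adjusted p = 0.0018) without the replicate-2 pair. It was not called with the 2 groups fitted alone or without Cre-only 0-h replicate 1, 2 or 3 (1.25 to 1.32).

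At 3 h, Pik3ip1 differed between genotypes. It was at 93.9, 68.9 and 68.5 CPM in Cre-only samples, against 56.1, 43.8 and 43.9 CPM in Runx1 c-k/o samples. Each Runx1 c-k/o sample thus lay below each Cre-only sample, as for 12.3% of all genes. It was 1.61-fold lower on average (log2 fold change -0.69, SE 0.131, interval -0.97 to -0.40, edgeR adjusted p = 0.0148). At rest, too, each Runx1 c-k/o sample of Pik3ip1 lay below each Cre-only sample, without passing. At 3 h it was the 1 of 8 genes to pass, where 2.77% of all tested genes passed, 1.3% lower. The log2 fold change lay between -0.82 and -0.52 under the 23 alternatives, and 19 of them called it. It was not called without Cre-only replicate 1 (-0.52, edgeR adjusted p = 0.0595), without Runx1 c-k/o replicate 2 (-0.63, edgeR adjusted p = 0.0589), with the 2 groups fitted alone (-0.67, edgeR adjusted p = 0.138) and without all 3 libraries that stood apart (-0.82, with 1 Runx1 c-k/o sample left at 3 h). T cell markers summed to 4.27, 2.55 and 2.16 CPM in 3-h Cre-only replicates 1, 2 and 3. In 3-h Runx1 c-k/o replicates they summed to 5.66, 2.03 and 2.53 CPM. Replicate 1 was thus highest in both groups for these markers and for Pik3ip1. The part of T cells in the Pik3ip1 levels was not tested.

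The KLF genes at 3 h turned on single libraries. Klf2 was at 29.6, 82.5 and 15.7 CPM in Runx1 c-k/o samples against 19.4, 15.7 and 19.5 CPM in Cre-only cells, a log2 fold change of 1.22 (SE 0.428) that did not pass (edgeR adjusted p = 0.184). It was 0.31 without Runx1 c-k/o replicate 2, 1.62 (edgeR adjusted p = 0.0185) without replicate 3, and -0.23 without all 3 libraries that stood apart. Klf3 had a log2 fold change of 0.42 (SE 0.198, edgeR adjusted p = 0.322). Without Runx1 c-k/o replicate 1 it was 0.68 (edgeR adjusted p = 0.00717), without all 3 libraries 0.83 (with 1 Runx1 c-k/o sample left at 3 h, assumed to vary like the other groups), and without replicate 3 only 0.15 (edgeR adjusted p = 0.583). Klf3 was thus higher in the Runx1 c-k/o samples at 47.4 and 61.9 CPM than in the Cre-only samples at 32.9 to 35.7 CPM, and lower in the third at 29.5 CPM. It was also called with 1 RUVs factor (0.53 with edgeR, adjusted p = 0.00482, and 0.56 with DESeq2, adjusted p = 1.44e-05).

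Of the other members at 3 h, Foxp1 was lower in each Runx1 c-k/o sample than in each Cre-only sample (12.3% of all genes were), with a log2 fold change of -0.27, an interval of -0.49 to -0.06 and an adjusted p of 0.201 (edgeR). Foxp1 was called with 1 RUVs factor (edgeR adjusted p = 0.0438, DESeq2 adjusted p = 0.0241). Its log2 fold change was -0.18 without Runx1 c-k/o replicate 1, -0.28 without the replicate-2 pair and -0.14 without all 3 libraries that stood apart. Btg1 had 0.29 (edgeR adjusted p = 0.31), with Runx1 c-k/o replicate 1 highest, 0.14 without that library and 0.01 without all 3 that stood apart. Foxo3 had 0.15 (interval -0.05 to 0.35), called with 1 RUVs factor in DESeq2 (0.24, DESeq2 adjusted p = 0.0234) but not in edgeR, Tob1 0.17 (-0.13 to 0.47) and Foxo1 -0.09 (-0.36 to 0.18). At an unadjusted p under 0.05 the members were Klf2, Foxp1 and Pik3ip1, 3 of the 8, where 16.2% of all genes were.

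**Figure D5:**
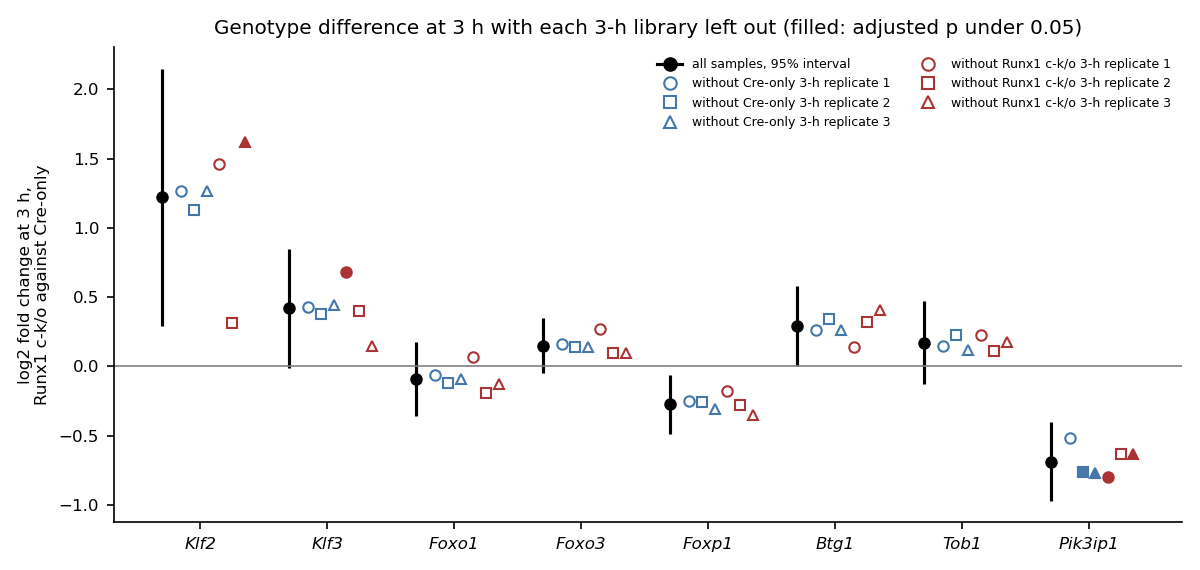
Log2 fold change of each gene at 3 h, Runx1 c-k/o against Cre-only, with all samples (black, 95% interval) and with each 3-h library left out, filled where the adjusted p is under 0.05. Klf2 moves from 1.22 to 0.31 without Runx1 c-k/o replicate 2, Klf3 from 0.42 to 0.68 without replicate 1, and Pik3ip1 stays below 0 throughout.

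In the neighbouring lists at 3 h, Pik3cd, the catalytic subunit gene of PI3K delta, was lower in Runx1 c-k/o cells, at 159 ± 12.6 against 221 ± 28.6 CPM (log2 fold change -0.48, edgeR adjusted p = 0.0361), but 7 of 23 alternatives called it. Without the 3 libraries that stood apart it was -0.42, with 1 Runx1 c-k/o sample left at 3 h. The forkhead gene Foxn3 was at 63.1 ± 29.4 against 160 ± 1.65 CPM (-1.34, edgeR adjusted p = 0.0361), called under 11 of 23 alternatives. Its log2 fold change was -1.49 (edgeR adjusted p = 0.0303) without the replicate-2 pair. It was -0.92 without the 3 libraries, with 1 Runx1 c-k/o sample left at 3 h. Gadd45a was higher, at 17.4 ± 1.06 against 7.44 ± 0.804 CPM (1.22, edgeR adjusted p = 7.20e-05), the 1 of 29 FOXO and KLF2 target genes to pass. Of the 18 other BTG/TOB and deadenylase genes, the 10 other KLF genes and the 19 genes of cell cycle restraint, 0 passed with edgeR. Under the alternatives at most 2 genes of each list passed in either direction. Of the 20 activation genes 4 were higher, where 2.77% of all tested genes passed in either direction. Among the 4 was Nr4a2, an orphan nuclear receptor gene, at 46.2 ± 1.28 against 16.5 ± 1.40 CPM.

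The change on activation itself was compared between genotypes by the interaction term, and 0 of the 8 genes passed (edgeR), where 0.0813% of all genes did. At an unadjusted p under 0.05 there were 2, Foxo3 and Pik3ip1, where 5.07% of all genes were. Foxo3 had a log2 difference of 0.37, a smaller fall in Runx1 c-k/o cells (SE 0.131, interval 0.08 to 0.65, edgeR adjusted p = 0.738), and was called with 1 RUVs factor (edgeR adjusted p = 0.0413, DESeq2 adjusted p = 0.00224). Without the 3 libraries that stood apart it was 0.42, with 1 Runx1 c-k/o sample left at 3 h. Pik3ip1 had -0.49 (SE 0.185, edgeR adjusted p = 0.785), called under 0 of 23 alternatives, so its rise in Cre-only cells, beside no called change in Runx1 c-k/o cells, is not shown to differ. Klf3 had 0.57 (interval -0.03 to 1.18, edgeR adjusted p = 0.999), and 0.89 without the 3 libraries, again with 1 Runx1 c-k/o sample left at 3 h. It was called with 1 RUVs factor in DESeq2 (0.60, DESeq2 adjusted p = 0.00457). Klf2 had 0.94 with an interval of -0.33 to 2.22, 0.03 without the replicate-2 pair and -0.52 without the 3 libraries.

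Genes with the most similar pattern over the 12 samples were found by the root mean square (RMS) difference of log2 CPM after centring each gene, among 8436 genes of at least 10 CPM. Klf2 was closest to Hist1h1c, a linker histone gene (RMS 0.248, r = 0.998), and it was the 1 gene nearer than 0.25 log2 units. Foxo1 was closest to Fli1, an ETS factor gene (0.0761, r = 0.998), with 256 genes within that distance. Foxo3 was closest to Mtmr14 (0.0729, r = 0.996), Tob1 to 2610018G03Rik (0.102, r = 0.996), Btg1 to Tmsb10, a thymosin gene (0.101, r = 0.989), and Klf3 to Itpkb, an inositol phosphate kinase gene (0.137, r = 0.955). Foxp1 had 1737 genes within that distance. Pik3ip1 had the lowest r with its closest gene, Plin3 (0.175, r = 0.828). All 12 samples share the step from rest to activation, so each r is a description and carries no test.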

How the data were processed

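The deposited table holds raw read counts per Ensembl gene and sample, without normalization. Per the labels and methods, the authors made stranded poly(A) libraries, aligned paired reads to mm9 with TopHat2 2.0.11 and counted them with featureCounts; base calling was with CASAVA 1.8.4, and the strand setting is not given in the sources used here. Positions and exon lengths came from the GENCODE annotation of the same build, and promoters from RefSeq. The members and gene lists were chosen with earlier results of these data known.

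Genes were filtered with filterByExpr (minimum count 10), leaving 13538, and tested with edgeR 4.0.16 (TMM, robust quasi-likelihood F test, 4-group fit of 12 samples) in R 4.3.3, with p-values adjusted by Benjamini-Hochberg across these genes and a threshold of 0.05. Intervals use the t quantile of the fit. An exact permutation test of 3 against 3 cannot go below 0.1. Up to 3 genes per list and comparison were named: those with the smallest adjusted p among called genes whose groups did not overlap. A result that this rule names is not reported here. Alternatives were DESeq2 1.42.0, other scalings and filters, 1 RUVs factor (written from its definition), replicate blocks, the 2 groups alone and each sample left out. Omitting libraries that stood apart was added after the data were seen. The fits were tested on simulated data.

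The labels do not say whether samples of the same number share an animal, so p-values measure the spread between these samples. Deviations of same-numbered 0-h and 3-h samples correlated at 0.275, 0.176 and 0.144 in Cre-only cells. In Runx1 c-k/o cells they correlated at -0.254, -0.264 and 0.254, and 0-h replicate 2 with 3-h replicate 1 at 0.477. Deviations from a mean of 3 samples are tied to each other, and libraries that stood apart enter the Runx1 c-k/o values. These correlations therefore do not establish in either genotype whether the numbers pair the samples. Spike-in RNA was added by the authors, but the table used here has no spike-in rows. Changes are therefore relative to TMM-scaled library sizes and are not amounts per cell.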

Additional observations from a re-analysis of the deposited data

Results flagged for a closer look

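The change on activation differed between genotypes, by the interaction term of the edgeR fit, for 2 genes of the neighbouring lists. Gadd45a fell less in Runx1 c-k/o cells, from 42.8 ± 2.44 to 17.4 ± 1.06 CPM, than in Cre-only cells, from 38.7 ± 1.09 to 7.44 ± 0.804 CPM, a log2 difference of 1.07 (edgeR adjusted p = 0.0116), called under 17 of 23 alternatives and not with a replicate block within genotype (1.08, edgeR adjusted p = 0.147) or without any of 5 single libraries (Cre-only 0-h replicates 1, 2 and 3, Cre-only 3-h replicate 3 and Runx1 c-k/o 3-h replicate 2; 1.04 to 1.09). Nr4a2 was at 53.1 ± 3.86 and then 46.2 ± 1.28 CPM in Runx1 c-k/o cells and fell from 50.8 ± 8.66 to 16.5 ± 1.40 CPM in Cre-only cells, a log2 difference of 1.42 (edgeR adjusted p = 0.00814), called under all 23 alternatives. Of the 8 genes of the set, 0 met this test.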

How the results depend on the processing

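Klf2, Foxo1, Foxo3, Btg1 and Tob1 were called lower on activation in both genotypes under all 24 alternatives, and the counts of genes called at rest stayed at 0 under all 23. At 3 h the 1 call became 3 and 4 with 1 RUVs factor (edgeR, DESeq2), 0 with the 2 groups fitted alone and 0 to 2 with a library left out, and for the interaction 0 became 1 and 2 with 1 RUVs factor and 2 without the 3 libraries that stood apart. Tob1 at rest had no direction, at -0.07 to 0.13 under the alternatives. Among values with a direction, reversals were as follows, and the cause was not tested: Foxp1 on activation in Cre-only cells, -0.03 with total counts and -0.07 with 10 counts in every sample; on activation in Runx1 c-k/o cells, Klf3 at 0.53 and 0.46 and Foxp1 at 0.08 and 0.02 with 1 RUVs factor, Klf3 at 0.02 without the 3 libraries and Pik3ip1 at 0.07 without the replicate-2 pair; between genotypes at rest, Foxp1 at 0.02 with 1 RUVs factor and 0.04 and 0.05 without the pair and the 3 libraries; at 3 h, Foxo1 at 0.02 with 1 RUVs factor (DESeq2) and Klf2 at -0.23 without the 3; in the interaction, Klf2 at -0.52 without the 3, and Foxo1 at -0.13 and Tob1 at -0.01 without the pair. With single libraries left out, Pik3ip1 on activation in Runx1 c-k/o cells ranged from -0.15 to 0.07, Foxp1 at rest from -0.06 to 0.04, Foxo1 at 3 h from -0.19 to 0.07 and Foxo1 in the interaction from -0.06 to 0.21.

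With the replicate number as a block, and as a block within genotype, no call of the 8 genes changed. Pik3ip1 between genotypes at 3 h was -0.68 (edgeR adjusted p = 0.0187), and Klf2 on activation in Runx1 c-k/o cells -4.89 and -5.09. Counts over all genes moved more: 202 genes were called at rest (81 to 864 under the alternatives), 375 at 3 h (158 to 1249) and 11 for the interaction (4 to 251).  Protein sequences were planned and are not used here.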
